A study of Homo sapiens with 8 samples.

Results

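The response of PANC1 cells to ionising radiation (IR) was examined with BAP1 not targeted. PANC1 is an established human pancreatic cancer cell line. The groups were defined by the sample labels: 2 arrays of cells given 10 Gy (IR) were set against 2 arrays of untreated cells (control). Together they make 4 of the 8 arrays of the series. The comparison and the gene lists below were chosen with earlier results of these data known. Transcripts were measured on Affymetrix PrimeView arrays, which read the 3′ end of each transcript, and RNA of irradiated cells was collected at day 3. The control and IR samples carry the genotype label Wildtype, and the other 4 arrays hold cells with a CRISPR/Cas9 guide against BAP1, untreated (sgBAP1) or irradiated (sgBAP1 + IR). BAP1 encodes a deubiquitinase of histone H2A. The study describes PANC1 as having already lost a copy of BAP1 and used a non-targeting guide in CRISPR controls, and the labels do not say whether the arrays used here carry that guide. Transcripts of BAP1 were not analysed here. No source tells whether both arrays of a group stem from separate cultures, so p-values measure only the spread between these samples, and no batch or scan record was given.

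Ionising radiation breaks both strands of DNA. Cells answer by holding the cycle at checkpoints, and p53, which induces the arrest gene CDKN1A, is a main relay. PANC1 is known for a mutant p53. Nucleic acids that reach the cytosol after such damage can be read by cytosolic sensors, cGAS with STING for DNA and RIG-I and MDA5 for RNA. These sensors raise interferons and the genes interferons induce, and also engage NF-kB, which drives chemokines and adhesion molecules. Irradiated tumour cells are also known to change the matrix they lay down and the receptors with which they hold it.

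Values are log2 expression values, so a change of 1 is a doubling of signal, and each change is given with its limma standard error (±), n = 2 arrays in each group. A gene was called when its Benjamini-Hochberg adjusted p lay under 0.05 and its fold change over 1.5. At these thresholds 1503 of 49293 probe sets (3.05%) were called. For each of 18132 genes the probe set of highest mean signal was used. Of these genes 399 rose (2.2%) and 251 fell (1.38%). With no minimum fold, 1672 genes were higher (9.22%) and 1926 lower (10.6%). The response was lopsided in size. Among called genes 175 rose by over 1 on the log2 scale against 48 that fell by as much, and 39 rose by over 2 where 0 fell by as much. Control and IR arrays did not overlap in any called gene, which the call brings about. The median change over all genes was 0, and 5% of genes lay below -0.365 and 5% above 0.359. Signals near the lower quartile of the arrays (4.299 to 4.339 log2 in control) are close to the floor, and 96 of the 399 risen genes had a control mean under 5, which can understate a fold.

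The labelled cell type was checked against its markers. The keratin genes of ductal epithelium stood high on all 4 arrays, with KRT18 at 13.47 and 13.47 log2 in control and 13.85 and 13.83 after IR, and EPCAM at 9.94 and 9.84 against 10.36 and 10.43. The summed log2 level of 11 ductal markers was 95.5 and 95.2 in control and 100.9 and 101.4 after IR, and 5 of the 11 were called higher: KRT7, KRT8, KRT19, SPP1 and GATA6. KRT8 was not called with control replicate 2 (0.58) or with IR replicate 1 (0.58) left out. Of 10 fibroblast markers 8 lay under 5 on all 4 arrays, and their sum was 46.0 and 46.8 in control and 45.1 and 45.0 after IR. The highest fibroblast marker in control was COL1A1, which was called lower. Of 9 leukocyte markers 6 lay under 5, with sums of 44.3 and 44.3 against 43.7 and 43.3, and CD68 fell (-0.63), a call lost without control replicate 1 (-0.55) or IR replicate 2 (-0.56). Acinar markers summed to 35.8 and 36.9 against 36.3 and 36.6 over 7 genes, and endothelial markers to 51.7 and 52.4 against 52.8 and 52.4 over 10. Only 2 of these acinar and 3 of these endothelial markers lay under 5 on all 4 arrays, as did 1 of the 11 ductal markers. The neuroendocrine granule genes CHGB (6.83 and 6.86 log2 in control, 7.94 and 7.95 after IR) and SCG2 (4.57 and 4.36, then 5.87 and 6.03) rose among 6 islet markers. None of 11 housekeeping genes was called, although 3 were lower without a minimum fold. GAPDH changed by 0.01 and ACTB by -0.08.

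Matrix genes were among the 20 largest rises, with COL4A1, COL4A2, FN1, EDIL3 and the protease MMP2. Type IV collagen forms the sheet of basement membranes, and its α1 and α2 chains assemble with each other from genes that lie head to head. COL4A1 stood at 3.93 and 4.20 log2 in control and at 8.38 and 8.30 after IR (4.28 ± 0.10, adjusted p = 4.79e-06). Its control level lay at the floor of the arrays, and its 2 other probe sets changed by 0.25 and 1.32, of which 1 was called. COL4A2 stood at 5.08 and 4.69 and then at 8.94 and 8.78 (3.98 ± 0.23, adjusted p = 8.83e-05). Both control arrays lay below both IR arrays in either gene, as in every gene called higher. The other 4 measured type IV chains were not called. The list's other risen members were LAMB1, a laminin β chain (8.53 and 8.31, then 10.21 and 10.20; 1.78 ± 0.08), and COL7A1, the anchoring fibril collagen (8.35 and 8.35, then 8.96 and 9.0; 0.63 ± 0.05). NID1, which links laminin to type IV collagen, moved the other way (9.76 and 9.62, then 9.02 and 8.92; -0.72 ± 0.09). In all, 4 of 23 basement membrane genes rose and 1 fell, with a median of 0.04, so the list as a whole stayed near the median of all genes. The laminin γ1 chain LAMC1, the partner of LAMB1, changed by -0.11 ± 0.05 (adjusted p = 0.201).

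In RefSeq on GRCh38.p14, the starts of COL4A1 (chr13:110307157, minus strand) and COL4A2 (chr13:110307284, plus strand) are separated by 126 bases, and this shared stretch is shown because both genes moved together. It is written in the direction of COL4A1, with the only match to CCAAT, on the opposite strand, in capitals. CCAAT on either strand was present in 35.7% of 27305 RefSeq promoters (250 bases before to 50 after the start).
COL4A1 (chr13:110307158-110307283, minus strand): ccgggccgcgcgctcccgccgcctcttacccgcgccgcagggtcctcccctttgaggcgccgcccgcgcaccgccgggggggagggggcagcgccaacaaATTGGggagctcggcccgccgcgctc

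Interstitial matrix genes rose in 12 of 41 cases and fell in 2, with a median of 0.16. The rises lay mostly among glycoproteins, of which 7 of 15 were called. Fibronectin, FN1, stood at 5.93 and 5.4 in control and at 8.89 and 8.88 after IR (3.23 ± 0.17), and of its 7 other probe sets, which changed by -0.04 to 2.38, 5 were called higher and 1 had the opposite sign. Fibrillin, FBN1, which builds microfibrils that store latent TGF-beta, went from 5.49 and 5.63 to 8.05 and 7.93 (2.44 ± 0.09). THBS1, a matricellular activator of latent TGF-beta, went from 6.30 and 6.13 to 8.58 and 8.39 (2.27 ± 0.08), and TGFBI, an integrin-binding protein induced by TGF-beta, from 11.36 and 11.30 to 12.61 and 12.53 (1.24 ± 0.05). Control and IR arrays did not overlap in any of them, as in every called gene. EDIL3, a ligand of integrin αvβ3, had a change of 3.30 ± 0.15 from 4.86 and 5.12 to 8.30 and 8.27, but its 4 other probe sets changed by 0.07 to 0.62 and were not called. The collagens were divided: COL12A1 (6.34 and 6.15, then 8.05 and 7.91) and COL6A1 (8.80 and 8.88, then 9.65 and 9.70) rose, whereas the fibrillar chains COL1A1 (8.29 and 8.23, then 7.47 and 7.36) and COL5A2 (7.61 and 7.52, then 6.52 and 6.59) fell. The enzymes that crosslink matrix among the risen genes were LOX (1.0 ± 0.08), LOXL1 (0.79 ± 0.05) and TGM2 (0.65 ± 0.08). TGM2 lost its call without control replicate 2 (0.55). SPOCK1 also rose (0.81 ± 0.10), and VCAN (0.60 ± 0.11) lay under 5 on all 4 arrays and was not called with control replicate 1 (0.61) or with IR replicate 2 (0.44) left out.

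Of 29 matrix proteases and inhibitors 4 rose and 0 fell, and 23 of the 29 lay above 0 (median 0.17). The gelatinase MMP2, which cleaves type IV collagen, stood at 6.07 and 6.03 in control and at 8.88 and 8.53 after IR (2.65 ± 0.14). PLAT, the tissue plasminogen activator, went from 5.59 and 5.39 to 7.20 and 7.45 (1.83 ± 0.16), and the membrane protease ADAM19 from 5.69 and 6.17 to 7.05 and 7.02 (1.11 ± 0.14). ADAMTS6 (0.69 ± 0.14) was not called with control replicate 1 (0.62) or with IR replicate 1 (0.55) left out. None of 5 inhibitors was called. Among receptors for matrix, ITGB8, whose integrin αvβ8 activates latent TGF-beta, went from 3.60 and 3.52 to 6.93 and 7.15 (3.48 ± 0.08), although its 3 other probe sets changed by 0.36 to 0.43. ITGB5 fell from 10.69 and 10.67 to 9.93 and 9.95 (-0.74 ± 0.05). The other 17 of 19 integrins were not called, among them ITGAV, the α partner of both (0.29 ± 0.06, adjusted p = 0.0198), and ITGB1 (-0.01 ± 0.05).

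**Figure D1:**
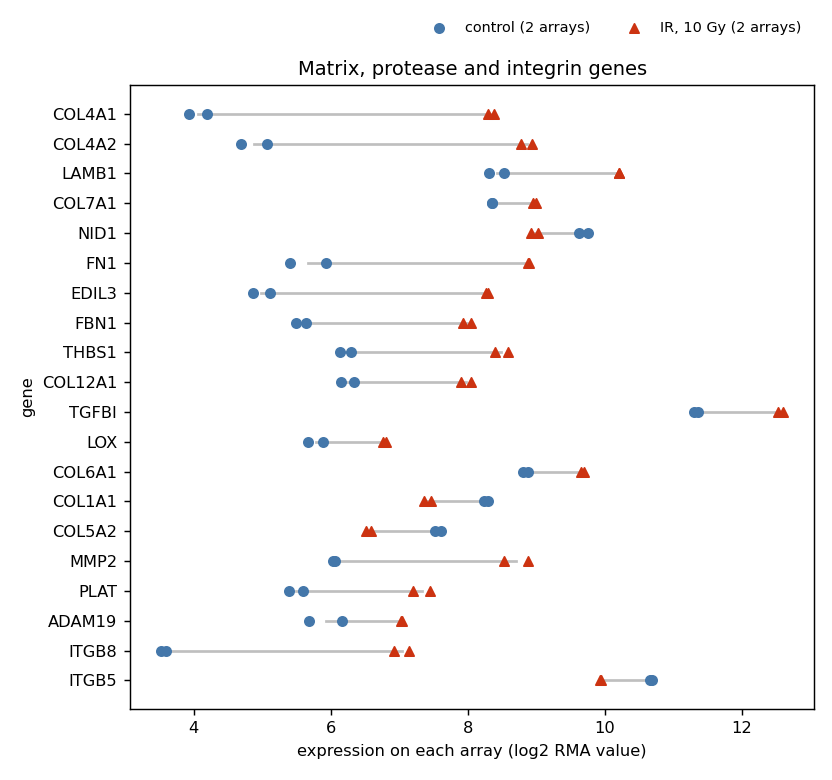
Expression of 20 matrix, protease and integrin genes on each of the 4 arrays, in log2 RMA values (circles, control; triangles, IR; grey line, from mean to mean). COL4A1 moves from 3.93 and 4.20 to 8.38 and 8.30, whereas NID1, COL1A1, COL5A2 and ITGB5 lie lower after IR.

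Of 41 genes of the TGF-beta family 1 rose and 2 fell, and 14 were higher and 7 lower at any fold, beside 9.22% and 10.6% of all genes. BMP4 rose (5.28 and 5.65, then 6.22 and 6.46; 0.88 ± 0.12), and INHBB, the β chain of activin B (9.91 and 9.97, then 8.74 and 8.67; -1.24 ± 0.06), and BMP6 (-0.60 ± 0.06) fell. BMP6 was not called with control replicate 1 (-0.58) or with IR replicate 2 (-0.57) left out. None of 8 receptors and 11 SMADs or corepressors was called. TGFB1 changed by 0.16 ± 0.08 and the receptor TGFBR1 by -0.49 ± 0.06 (adjusted p = 0.0019). The classic target CCN2 changed by -0.13 ± 0.06 (adjusted p = 0.188). TGFB1, TGFBR1 and CCN2 are named with their values known.

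Among 21 Eph receptors and ephrins, which signal between touching cells, EPHB1 alone was called. It stood at 5.44 and 5.49 in control and at 9.61 and 9.75 after IR (4.21 ± 0.07, adjusted p = 7.68e-07), and 4 of its 5 other probe sets were called higher too. EPHA2 changed by 0.16 ± 0.05 and the ligand EFNB2, which binds EphB receptors, by 0.35 ± 0.06 (adjusted p = 0.00674) without reaching the fold.

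Other large rises fell outside the matrix. TXNIP, which inhibits thioredoxin and limits glucose uptake, stood at 7.04 and 6.94 in control and at 9.57 and 9.49 after IR (2.54 ± 0.11), and all 4 of its other probe sets were called higher. The lysosomal carboxypeptidase CPVL went from 3.90 and 4.31 to 7.80 and 7.80, and annexin ANXA3 from 3.44 and 3.22 to 6.62 and 6.39. FGFBP1 (3.92 and 4.14, then 6.87 and 6.70) and FGFBP2 (4.95 and 4.54, then 8.15 and 8.12) are neighbours on chromosome 4, and FGFBP1 is known to release fibroblast growth factors from matrix. HS6ST2, a sulfotransferase of heparan sulfate, went from 5.61 and 5.69 to 8.82 and 8.73. The neuronal genes FEZ1 (5.24 and 5.2, then 8.46 and 8.34) and NEFL, a neurofilament subunit (4.0 and 4.12, then 7.03 and 6.88), were also among the 20 largest rises, with FILIP1L, MAN1A1, PLEKHG1 and ATP8B1 at 2.62 to 3.01. In each of these genes the IR arrays lay above both control arrays, which holds for every gene called higher. For FILIP1L, 2 of 6 other probe sets had the opposite sign, and for FEZ1 1 of 3.

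Falls were smaller. BTNL9, a butyrophilin-like gene, stood at 7.54 and 7.46 in control and at 5.79 and 5.56 after IR (-1.82 ± 0.09), with neither of its 2 other probe sets called. The homeobox gene ESX1 went from 9.51 and 9.46 to 7.79 and 7.80, and NKX6-2 from 8.07 and 8.01 to 6.53 and 6.62. FOXQ1, a forkhead transcription factor, fell from 11.34 and 11.35 to 10.05 and 10.10, and RBP7, a retinoid-binding protein, from 10.19 and 10.12 to 8.84 and 8.78. CCN4, a matricellular Wnt target, went from 8.57 and 8.61 to 7.08 and 7.20 (-1.45 ± 0.07), with all 3 other probe sets called lower. MLPH, which links melanosomes to myosin, fell from 10.17 and 10.16 to 8.88 and 9.03. These 7 genes were well above the floor in control, and their groups did not overlap, as in every called gene. The remaining 13 of the 20 largest falls, AFAP1L1, GALNT18, RNF157, CACNA1A, TMEM255A, PRKCB, RNFT2, PLEKHO1, XK, INHBB, IGFBPL1, NUP62CL and TMEM158, ranged from -1.78 to -1.19. Another probe set of PRKCB and of MLPH had the opposite sign.

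The interferon system held 84 measured genes, of which 24 rose and 1 fell, and 37 were higher with no minimum fold against 3 lower. It is ordered here from sensors to effectors. Of 13 nucleic acid sensors only IFIH1, which encodes the RNA sensor MDA5, was called (5.24 and 5.12 in control, 7.35 and 7.65 after IR; 2.32 ± 0.10). RIGI, the sister sensor, went from 7.71 and 7.69 to 8.18 and 8.21 (0.49 ± 0.05, adjusted p = 0.00118), under the fold. The DNA sensor CGAS overlapped between groups, at 8.18 and 7.97 in control and 8.08 and 8.16 after IR (0.04 ± 0.08), and its partner STING1 lay near the floor (4.12 and 4.17, then 4.44 and 4.50). None of 6 interferon genes was called, and all 6 had means under 5 in both groups, among them IFNB1 (3.56 and 3.78, then 3.73 and 3.51) and IFNL1 (4.29 and 4.66, then 4.43 and 4.36).

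Of 16 receptors and signalling genes 3 rose, all interferon regulatory factors. IRF9, the DNA-binding subunit of the ISGF3 complex, went from 8.40 and 8.38 to 9.79 and 9.74 (1.38 ± 0.05). IRF1 went from 6.57 and 6.47 to 7.80 and 7.84 (1.3 ± 0.06) and IRF7 from 7.33 and 7.12 to 8.20 and 8.15 (0.95 ± 0.07). IRF3 changed by 0.17 ± 0.06 (adjusted p = 0.113). SOCS3, a feedback inhibitor of JAK kinases, fell from 7.60 and 7.48 to 6.56 and 6.52 (-1.0 ± 0.07).

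Effectors carried most of the calls: 20 of 49 rose, 0 fell, and 44 lay above 0, with a median of 0.42 beside 0 over all genes. The antiviral GTPase MX1 went from 4.37 and 3.96 to 6.76 and 6.86 (2.65 ± 0.18). IFI6 went from 7.19 and 6.89 to 8.99 and 8.92 (1.91 ± 0.10), the ubiquitin-like ISG15 from 8.81 and 8.65 to 10.40 and 10.37 (1.66 ± 0.06) and the viral entry inhibitor IFITM1 from 5.93 and 5.99 to 7.62 and 7.51 (1.6 ± 0.12). The helicase DDX60 rose by 1.47 ± 0.09 and the nuclear body protein SP100 by 1.44 ± 0.15. Every IR array lay above both control arrays in these genes, as in every gene called higher. The other 14 risen effectors ranged from 0.60 to 1.39, led by IFIT3, PARP9 and OASL. IFI35 was not called with control replicate 2 (0.52) or with IR replicate 1 (0.50) left out, and BST2 (0.71) lost its call whichever of the 4 arrays was omitted (0.64 to 0.78). The induction was not general within the list. IFIT1, near IFIT3 in the genome, stood at 8.82 and 8.80 in control and 8.86 and 8.89 after IR (0.06 ± 0.05), and MX2, next to MX1, at 9.47 and 9.37 against 9.40 and 9.42 (-0.01 ± 0.05). Both are named with their values known.

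Interferon-induced promoters carry the interferon-stimulated response element (ISRE), searched here as GAAANNGAAA on both strands of RefSeq promoters on GRCh38.p14. Of the 20 risen effectors 16 had a promoter in the table and 12 of these 16 held a match (75%). Of the 29 effectors not called 23 had a promoter and 15 held a match (65.2%), and the difference between these shares was not tested. The share was 3.65% of all 27305 promoters, 9.09% of 308 promoters of risen genes and 0.962% of 208 promoters of fallen genes. A match is a description of the letters and not a bound site. The stretches before the start are shown for 5 risen effectors and for IFIH1, chosen among those that hold a match, to show where it lies, with matches in capitals. A match on the opposite strand reads TTTCNNTTTC, and the match of MX1 lies just after the start.
ISG15 (chr1:1013337-1013496, plus strand): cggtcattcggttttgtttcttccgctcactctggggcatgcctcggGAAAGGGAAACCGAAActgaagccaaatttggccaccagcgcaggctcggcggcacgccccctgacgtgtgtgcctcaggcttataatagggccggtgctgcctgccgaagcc
IFI6 (chr1:27672193-27672352, minus strand): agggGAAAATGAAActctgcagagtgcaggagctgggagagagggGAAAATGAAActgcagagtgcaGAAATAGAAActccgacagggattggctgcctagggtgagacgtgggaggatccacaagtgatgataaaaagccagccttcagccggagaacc
MX1 (chr21:41420398-41420579, plus strand): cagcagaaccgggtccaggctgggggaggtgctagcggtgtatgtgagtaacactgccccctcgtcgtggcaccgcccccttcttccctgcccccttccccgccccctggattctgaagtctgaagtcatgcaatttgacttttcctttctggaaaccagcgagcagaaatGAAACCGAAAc
IFIT3 (chr10:89327837-89327996, plus strand): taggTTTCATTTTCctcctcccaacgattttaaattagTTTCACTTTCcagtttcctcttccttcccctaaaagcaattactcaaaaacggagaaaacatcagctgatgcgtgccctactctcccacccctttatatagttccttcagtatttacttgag
DDX60 (chr4:168318753-168318912, minus strand): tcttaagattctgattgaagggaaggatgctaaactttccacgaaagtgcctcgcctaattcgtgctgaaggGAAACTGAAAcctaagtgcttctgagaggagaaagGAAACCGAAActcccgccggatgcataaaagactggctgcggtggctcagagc
IFIH1 (chr2:162318685-162318844, minus strand): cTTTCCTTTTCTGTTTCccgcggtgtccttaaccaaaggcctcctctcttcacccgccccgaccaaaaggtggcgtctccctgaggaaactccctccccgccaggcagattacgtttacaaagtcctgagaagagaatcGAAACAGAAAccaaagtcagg

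**Figure D2:**
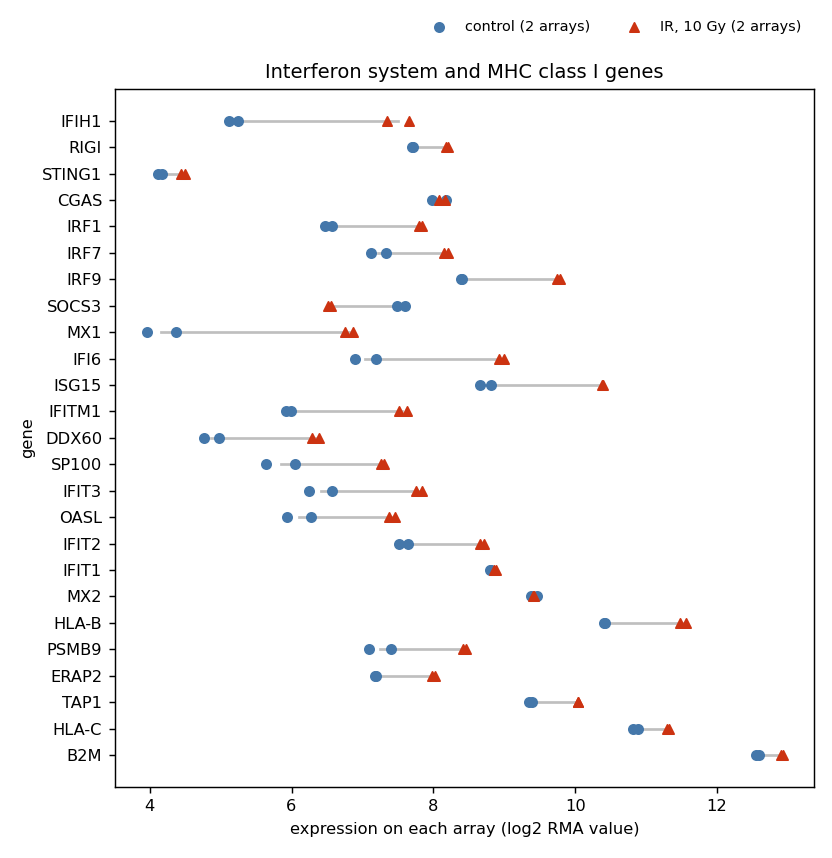
Expression of 25 interferon system and MHC class I genes on each of the 4 arrays, in log2 RMA values (circles, control; triangles, IR; grey line, from mean to mean). ISG15 moves from 8.81 and 8.65 to 10.40 and 10.37, whereas CGAS, IFIT1 and MX2 have control and IR values close together.

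Genes of MHC class I, which presents peptides to cytotoxic T cells, moved together by small amounts. Of 20 measured genes 4 rose, and 13 were higher and 1 lower with no minimum fold, with a median of 0.45. The heavy chain HLA-B went from 10.41 and 10.41 to 11.47 and 11.57 (1.11 ± 0.06). HLA-B shares sequence with other class I genes, so its probes may read relatives, and 1 of its 2 other probe sets had the opposite sign. PSMB9, an immunoproteasome subunit, went from 7.4 and 7.10 to 8.46 and 8.42, the trimming peptidase ERAP2 from 7.17 and 7.19 to 7.98 and 8.02, and the peptide transporter TAP1 from 9.38 and 9.35 to 10.04 and 10.04. HLA-C (0.46 ± 0.06), HLA-E (0.46 ± 0.05), PSMB8 (0.55 ± 0.07) and the light chain B2M (0.34 ± 0.05) had adjusted p-values of 0.00113 to 0.00579 without reaching the fold. Their IR arrays all lay above the control arrays, which such adjusted p-values largely bring about. Ligands of natural killer cells and checkpoints were called in 0 of 19 cases by limma (3 at adjusted p under 0.05 with any fold), beside 2.2% of all genes called higher and 1.38% lower. MICA changed by 0.24 ± 0.06, and CD274, which encodes PD-L1, stood at 4.28 and 4.45 in control and 4.28 and 3.91 after IR.

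NF-kB genes rose in 7 of 22 cases, and 21 of the 22 lay above 0 (median 0.25). The called members were mostly inhibitors and feedback targets that NF-kB itself induces. NFKBIZ went from 6.92 and 6.89 to 8.21 and 8.18 (1.28 ± 0.07), NFKBIA, which holds NF-kB in the cytoplasm, from 9.79 and 9.76 to 10.47 and 10.46 (0.69 ± 0.05) and the deubiquitinase TNFAIP3 from 6.69 and 6.71 to 7.55 and 7.35 (0.75 ± 0.08). TRAF1 (0.61 ± 0.08) was not called with control replicate 2 (0.51) or with IR replicate 2 (0.56) left out. Among subunits RELB was called (6.85 and 6.91, then 7.57 and 7.61), and NFKB2 changed by 0.46 ± 0.08 (adjusted p = 0.01) and RELA by 0.15 ± 0.06. ICAM1, a leukocyte adhesion molecule, went from 7.28 and 7.5 to 9.04 and 8.93 (1.6 ± 0.09), and TNFAIP2 from 6.51 and 6.68 to 7.71 and 7.54.

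A κB site, searched as GGGNNTTTCC on both strands, was present in 3 of 6 promoters of the called NF-kB genes and in 1.92% of all promoters. In the whole measured list 5 of 19 promoters held a match (26.3%), and among all risen genes 11 of 308 (3.57%). The difference between called and other list members was not tested. The stretches that hold a match are shown for these 3 genes on GRCh38.p14, with the match in capitals, and a match on the opposite strand reads GGAAANNCCC.
NFKBIA (chr14:35404770-35404849, minus strand): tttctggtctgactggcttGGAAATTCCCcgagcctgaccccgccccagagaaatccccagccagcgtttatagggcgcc
TNFAIP3 (chr6:137867159-137867238, plus strand): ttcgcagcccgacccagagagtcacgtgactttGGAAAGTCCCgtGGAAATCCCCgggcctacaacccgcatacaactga
NFKBIZ (chr3:101827760-101827809, plus strand): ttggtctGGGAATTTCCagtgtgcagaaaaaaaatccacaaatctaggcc

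Chemokines and cytokines moved in both directions, with 5 of 47 higher and 3 lower and a median of 0.01. Of all genes 2.2% were called higher and 1.38% lower. At any fold 12 of the 47 were higher and 6 lower, beside 9.22% and 10.6% of all genes. CCL5, which draws T cells, went from 5.73 and 5.58 to 7.32 and 7.19 (1.6 ± 0.11), and the neutrophil chemokine CXCL8 from 7.12 and 7.03 to 8.30 and 8.35 (1.25 ± 0.06). CCL20 (4.60 and 5.28, then 6.62 and 6.41), CX3CL1 (7.4 and 7.64, then 8.40 and 8.28) and IL32 (6.56 and 6.58, then 7.56 and 7.47) rose too. The chemokine receptor CXCR4 fell from 6.33 and 6.23 to 5.07 and 5.29 (-1.10 ± 0.10), with all 3 other probe sets called lower. CCL28 (-0.73 ± 0.15) and LIFR (-0.60 ± 0.09) lost their calls in omissions of single arrays, CCL28 without control replicate 1 (-0.50), IR replicate 1 (-0.75) or IR replicate 2 (-0.71) and LIFR without IR replicate 1 (-0.52). IL6 changed by 0.01 ± 0.17 and IL1B by -0.25 ± 0.05, and CXCL1 was lower (-0.45 ± 0.07, adjusted p = 0.00489) without reaching the fold. In the complement list C3 (4.23 and 4.32, then 5.57 and 5.83) and the regulator CD55 (7.64 and 7.56, then 8.47 and 8.48) rose, and clusterin, CLU, fell from 12.26 and 12.27 to 11.18 and 11.10.

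Genes of the cell cycle showed a broad and shallow fall in mitosis. Of 78 mitosis genes 74 lay below 0, 55 were lower and 0 higher with no minimum fold, and the median was -0.31, while 8 reached the fold. The 8 were the kinases PLK1 (9.25 and 9.20, then 8.55 and 8.62; -0.64 ± 0.06), NEK2 and PBK, the kinetochore and centromere genes CENPF (10.26 and 10.14, then 9.54 and 9.55; -0.65 ± 0.06), CENPN and SGO1, and the kinesins KIF15 (8.08 and 7.98, then 7.21 and 7.13; -0.86 ± 0.06) and KIF14. Without control replicate 1 the count was 5, since NEK2 (-0.57), CENPN (-0.57) and KIF14 (-0.55) lost their calls. NEK2 also lost it without IR replicate 1 (-0.58) and CENPN without IR replicate 2 (-0.57). Below the fold, cyclin B1, CCNB1, went from 11.76 and 11.76 to 11.25 and 11.31 (-0.48 ± 0.05), the anaphase activator CDC20 from 11.74 and 11.69 to 11.22 and 11.22 (-0.49 ± 0.05), and the proliferation marker MKI67 from 10.59 and 10.53 to 10.21 and 10.21 (-0.35 ± 0.05). FOXM1, a transcription factor of these genes, changed by -0.44 ± 0.06 and CDK1 by -0.18 ± 0.05. In bulk RNA, fewer cells in mitosis and less RNA per cell cannot be told apart. Whether the 8 called genes lie in the low stretches of chromosomes described below was not examined.

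Promoters of late cell cycle genes carry the cell cycle homology region (CHR, TTTGAA) and CCAAT boxes, both searched on either strand. Among 66 mitosis genes with a RefSeq promoter 46 held a CHR (69.7%) and 44 a CCAAT (66.7%), against 15.4% and 35.7% of all promoters. Of 208 promoters of all fallen genes 27 held a CHR and 81 a CCAAT (38.9%). Among promoters of measured genes the shares were 12.1% and 36.4%. The high CHR share therefore describes the mitosis list and not fallen genes in general. Of 44 DNA replication promoters 2 held a CHR (4.55%) and 24 a CCAAT (54.5%). The stretches before the start of 4 fallen genes are shown on GRCh38.p14 with both motifs in capitals (CHR also reads TTCAAA and CCAAT also ATTGG). In CENPF the CHR lies after the start, outside the stretch shown. The stretch of KIF14 runs past the start, and its CHR lies at bases 2 to 7 of the transcript.
PLK1 (chr16:23678789-23678888, plus strand): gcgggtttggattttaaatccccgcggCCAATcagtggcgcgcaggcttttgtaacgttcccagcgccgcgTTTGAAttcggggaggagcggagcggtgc
NEK2 (chr1:211675622-211675721, minus strand): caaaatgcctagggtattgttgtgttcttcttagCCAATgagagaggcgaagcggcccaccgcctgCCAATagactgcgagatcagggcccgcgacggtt
CENPF (chr1:214603095-214603194, plus strand): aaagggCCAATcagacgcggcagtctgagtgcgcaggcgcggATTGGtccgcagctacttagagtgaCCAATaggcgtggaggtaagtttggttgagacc
KIF14 (chr1:200620742-200620851, minus strand): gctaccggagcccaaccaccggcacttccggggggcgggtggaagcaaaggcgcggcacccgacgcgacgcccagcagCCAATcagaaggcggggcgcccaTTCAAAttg

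DNA replication genes were called in 0 of 50 cases, with 16 lower and 1 higher at any fold and a median of -0.13. The helicase subunit MCM2 changed by -0.37 ± 0.06 (adjusted p = 0.00821), whereas PCNA, the sliding clamp, stood at 12.92 and 12.87 in control and 12.89 and 12.86 after IR, and TYMS, which makes thymidylate, at 13.02 and 12.97 against 12.89 and 12.91. Break repair and checkpoint genes were also called in 0 of 60 cases (2 higher and 10 lower at any fold, median -0.13), and the break kinase ATM changed by 0.31 ± 0.05 (adjusted p = 0.00796). Both lists stand beside 2.2% of all genes called higher and 1.38% lower, and 9.22% higher and 10.6% lower at any fold. In G1 control, cyclin D2, CCND2, went from 3.52 and 3.43 to 5.87 and 5.88 (2.40 ± 0.09), with 2 other probe sets at 0.22 and 0.23 and not called. CDK6, a partner of D cyclins, rose from 10.27 and 10.27 to 10.99 and 11.07, and the phosphatase CDC25A, which activates CDKs and is degraded at the DNA damage checkpoint, fell from 7.19 and 7.30 to 6.41 and 6.03 (-1.03 ± 0.12). CCND1 changed by 0.05 ± 0.05.

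Of 28 genes known as p53 targets 3 rose: the arrest genes GADD45A (8.90 and 8.85, then 9.86 and 9.90; 1.01 ± 0.05) and CDKN1A (9.59 and 9.60, then 10.24 and 10.25; 0.66 ± 0.06) and the death receptor FAS (5.6 and 6.04, then 6.77 and 6.69; 0.91 ± 0.13). The other 25 were not called and the median was 0.08. MDM2, the feedback inhibitor of p53, changed by -0.08 ± 0.05, BAX by -0.06 ± 0.06 and BBC3, which encodes PUMA, by 0.33 ± 0.06 (adjusted p = 0.00763). Among 31 apoptosis genes only the inflammatory caspase CASP4 was called (6.82 and 6.83, then 7.67 and 7.67), beside 2.2% of all genes called higher and 1.38% lower. At any fold 4 of the 31 were higher and 4 lower, beside 9.22% and 10.6% of all genes. Replication-dependent histone genes, whose transcripts normally lack a poly(A) tail, rose in 6 of 46 cases with a median of -0.05: H2BC5 (8.94 and 8.78, then 10.15 and 10.08), H2BC4 (5.18 and 5.34, then 6.48 and 6.48), H2BC12 (1.03 ± 0.06), H2AC6 (0.95 ± 0.08), H1-2 (0.83 ± 0.07) and H3C10 (0.61 ± 0.16). H3C10 lost its call without control replicate 2 (0.33), IR replicate 1 (0.61) or IR replicate 2 (0.62). Histone genes are near-identical copies, so probes may read several of them, and 23 of the 46 lay under 5 in both groups.

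Several metabolic lists had medians below 0. Of 32 cholesterol and fatty acid synthesis genes 28 lay below 0 and 19 were lower at any fold (median -0.23), but only FDPS, which makes farnesyl diphosphate, reached the fold (10.94 and 10.92, then 10.36 and 10.28), and it lost its call without IR replicate 2 (-0.57). The desaturase SCD went from 12.03 and 11.98 to 11.52 and 11.43 (-0.53 ± 0.05), SQLE changed by -0.30 ± 0.05 and HMGCS1 by -0.32 ± 0.06. Of 33 glycolysis and hypoxia genes 4 fell, all among the 21 glycolytic enzymes and transporters. They were the regulators PFKFB3 (9.26 and 9.23, then 8.35 and 8.39) and PFKFB4 (7.95 and 7.94, then 7.31 and 7.21), the kinase PDK3, which restrains pyruvate dehydrogenase, and ENO2. ENO2 was not called with control replicate 2 (-0.46) or with IR replicate 1 (-0.53) left out. NRF2 targets were called in 0 of 28 cases, with 11 lower and 0 higher at any fold (median -0.16), and the glutathione enzyme subunit GCLM changed by -0.46 ± 0.06 (adjusted p = 0.00294). Lysosome genes leaned the other way, with 28 of 36 above 0 and CPVL called. Lists of the unfolded protein and ATF4 response (33 genes), ribosome biogenesis (33), Hippo and YAP (29) and Polycomb and BAP1 complex partners (31) held 0 called genes, with 12, 9, 10 and 6 at adjusted p under 0.05 and any fold. Of all genes 2.2% were called higher and 1.38% lower, and at any fold 9.22% were higher and 10.6% lower.

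**Figure D3:**
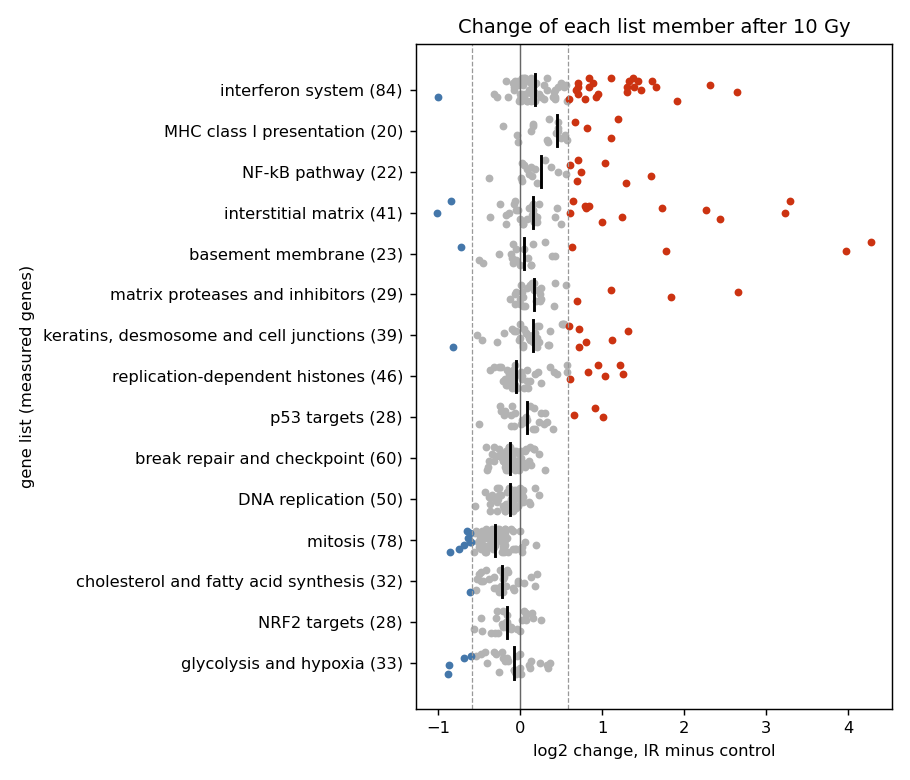
Log2 change (IR minus control) of every measured member of 15 gene lists. Red and blue points are genes called higher and lower, grey points were not called, the black bar is the list median, and dashed lines mark a 1.5-fold change. Points of the interferon, matrix and protease lists reach far to the right, and the mitosis points gather left of 0 around a median of -0.31.

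Among epithelial genes, 4 of 10 keratins and 2 of 12 desmosome genes rose. Of all 39 keratin, desmosome and junction genes 6 rose and 1 fell (median 0.15). KRT19 went from 10.71 and 10.64 to 11.80 and 11.79 (1.12 ± 0.05) and the desmosomal plaque gene PKP2 from 7.35 and 7.08 to 8.53 and 8.53 (1.31 ± 0.09), while KRT7, KRT8, KRT15 and DSC3 rose by 0.59 to 0.80. E-cadherin, CDH1, fell from 7.21 and 7.09 to 6.41 and 6.25 (-0.82 ± 0.13), but its other probe set had the opposite sign, and the call was lost without IR replicate 2 (-0.74). KRT8 was not called with control replicate 2 (0.58) or with IR replicate 1 (0.58) left out. Of 24 mesenchymal regulators ZEB2 rose (0.74 ± 0.12, under 5 on all 4 arrays) and NT5E fell (-0.66 ± 0.07), which lost its call without control replicate 1 (-0.58). Vimentin, VIM, stood at 14.21 and 14.20 in control and 14.04 and 14.10 after IR, N-cadherin, CDH2, changed by -0.47 ± 0.07 and SNAI2 by 0.46 ± 0.07. Fibronectin and the collagens described above were placed in the matrix lists. The endoderm factor GATA6 rose from 6.49 and 6.38 to 7.64 and 7.74 (1.25 ± 0.07).

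Of 57 Notch, Wnt and Hedgehog genes 4 rose and 2 fell, and of 45 EGF receptor, MAPK and AP-1 genes 2 rose and 1 fell. Among Wnt genes LEF1, a nuclear effector (5.38 and 5.08, then 7.37 and 7.11; 2.01 ± 0.12), and the secreted inhibitor DKK1 (11.75 and 11.76, then 12.52 and 12.54; 0.78 ± 0.05) rose, and the receptor FZD7 fell from 9.97 and 9.94 to 9.20 and 9.07 (-0.82 ± 0.06). FZD1 (0.60 ± 0.10) was not called with control replicate 2 (0.48) or with IR replicate 2 (0.58) left out. The Hedgehog transcription factor GLI3 rose (1.09 ± 0.16) and the Notch target HEY1 fell (-0.77 ± 0.09). Among EGF receptor ligands NRG1 fell from 8.38 and 8.39 to 7.49 and 7.57, with 3 of its 7 other probe sets of the opposite sign. KLF4 rose (4.54 and 4.33, then 5.75 and 5.86). EGR1 (0.61 ± 0.11) was not called with control replicate 2 (0.49) or with IR replicate 1 (0.49) left out, and IGFBP3 (-0.69 ± 0.12) was not called without control replicate 1 (-0.50), IR replicate 1 (-0.68) or IR replicate 2 (-0.71). S100A16 (6.78 and 6.84, then 8.21 and 8.10) and S100A13 rose among 16 S100 genes, which encode calcium-binding proteins. TET1, which oxidises methylated cytosine, fell from 7.13 and 7.09 to 6.12 and 6.07 (-1.01 ± 0.06), and IDH1, which makes the cosubstrate of TET enzymes, from 10.12 and 10.10 to 9.38 and 9.46. Of 22 genes for O-glycosylation and sialylation GALNT14, ST3GAL1 and ST6GAL1 rose and GALNT18 and GALNT12 fell, and GALNT12 lost its call without IR replicate 2 (-0.58).

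Changes were spread over the genome, but the lowest stretches gathered on chromosomes 5, 1 and 3. Neighbouring genes were grouped in windows of 50 along each chromosome, in RefSeq order and among genes with a group mean of 5 or more. Of 252 windows 14 had a median below -0.15 and 1 above 0.15. The lowest, from PLEKHG4B to DROSHA on chromosome 5, had a median of -0.285, with 44 of 50 genes below 0. The next, from SLC35F3 to OR2T6 on chromosome 1, had a median of -0.284. Then followed C5orf22 to ARL15 on chromosome 5 (-0.272), and HDAC11 to CNOT10 (-0.262) and ZKSCAN7 to IP6K2 (-0.248) on chromosome 3. In the other IR response, in sgBAP1 cells, these windows had medians of -0.248, -0.243, -0.276, -0.212 and -0.166, in the order named. The cause of these low stretches was not tested.

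The same dose was given to cells with the BAP1 guide, on arrays that share none with the comparison above, so the response could be set beside its repeat in the other genotype. Of the 399 risen genes 389 lay above 0 in sgBAP1 cells and 258 were called higher there, and of the 251 fallen genes 242 lay below 0 and 104 were called lower. Over all 18132 genes, 345 were called higher and 233 lower in sgBAP1 cells, and the median change there was 0.03. The median change of the risen genes was 0.91 in untargeted cells and 0.77 in sgBAP1 cells, and of the fallen genes -0.72 and -0.54. Since these genes were chosen for their change in untargeted cells, a smaller change elsewhere follows in part from the choice. Across all 18132 genes Pearson's r of both responses was 0.77, a description over genes that are not independent replicates. Some of the large changes had close values in both: COL4A1 rose by 4.28 in untargeted and 4.29 in sgBAP1 cells, EPHB1 by 4.21 and 4.08, FN1 by 3.23 and 3.12, MX1 by 2.65 and 2.77, and IRF9 by 1.38 and 1.51. For COL4A1 the difference between both responses was 0.02 ± 0.14 and for MX1 0.12 ± 0.25, with limma adjusted p-values over all probe sets above 0.05 for each of the 5. Other large changes had values further apart: EDIL3 changed by 3.30 and 2.18 (adjusted p of the difference = 0.0756), MMP2 by 2.65 and 1.48 (0.0579) and THBS1 by 2.27 and 1.48 (0.0478), of which the difference was called for THBS1. The fall of mitosis genes had a median of -0.31 in untargeted and -0.18 in sgBAP1 cells.

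**Figure D4:**
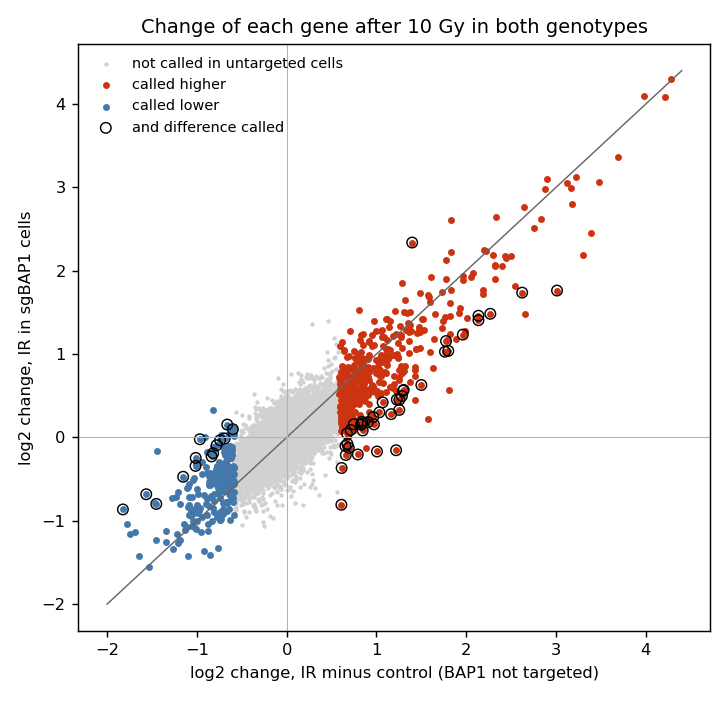
Log2 change of each of 18132 genes after 10 Gy in untargeted cells (horizontal axis) and in sgBAP1 cells (vertical axis). Red and blue points are genes called higher and lower in untargeted cells, circles mark called genes whose difference between both responses was also called, and the line marks equal change. Most circled points lie nearer to 0 on the vertical axis than on the horizontal axis.

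The difference between both responses was called in 84 genes (0.463%). Among the 399 risen genes it was called in 39, below 0 in 38 and above 0 in PADI2, and among the 251 fallen genes in 14, above 0 in all. The difference uses the same control and IR arrays that chose these genes, so this direction is partly fixed. No call of a difference was left when any single array was omitted from the fit, which leaves 1 array in a group. GADD45A rose to 9.86 and 9.90 after IR in untargeted cells, whereas sgBAP1 arrays stood at 10.998 and 11.025 before and 10.83 and 10.85 after IR, above every untargeted array (difference -1.18 ± 0.07, adjusted p = 0.0183). CDKN1A stood at 10.87 and 10.77 and then at 10.73 and 10.70 in sgBAP1 cells, also above the irradiated untargeted arrays (difference -0.76 ± 0.08, adjusted p = 0.0218). For H2BC4 (difference -1.37 ± 0.12) and CXCL8 (-0.92 ± 0.08), both with an adjusted p of 0.0183, all 4 arrays with the BAP1 guide also lay above the irradiated untargeted arrays. IRF1 changed by 1.3 in untargeted and 0.57 in sgBAP1 cells, and after IR it stood at 7.80 and 7.84 in the former and 7.94 and 7.99 in the latter. In these 5 genes the untreated sgBAP1 arrays lay above the untreated control arrays, and the step at IR was larger in untargeted cells. Other risen genes with a called difference were the histones H2BC5, H2BC12 and H1-2, CASP4, KRT15, THBS1, EGR1, FILIP1L and ATP8B1. Of the falls, TET1 (-1.01 in untargeted, -0.34 in sgBAP1 cells), COL5A2 (-1.01 and -0.25) and PFKFB4 (-0.69 and -0.01) were smaller in sgBAP1 cells.

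**Figure D5:**
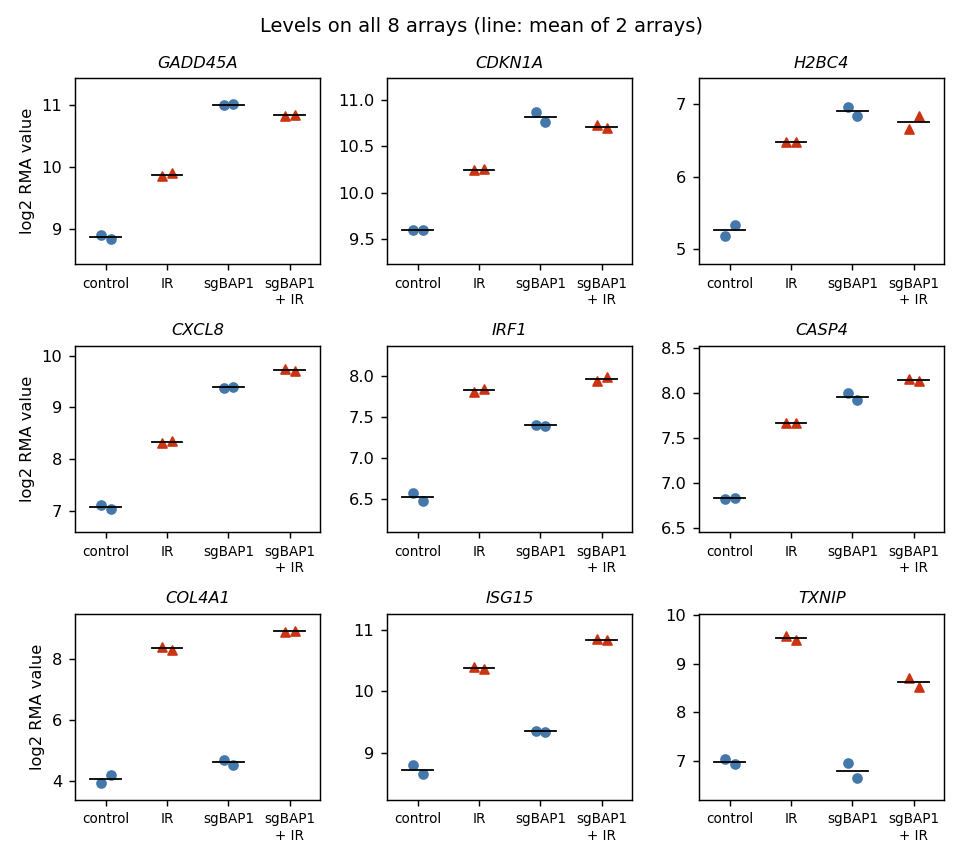
Log2 RMA values of 9 genes on all 8 arrays (circles, not irradiated; triangles, 10 Gy; black line, mean of 2 arrays). GADD45A, CDKN1A, H2BC4, CXCL8, IRF1 and CASP4 are higher in untreated sgBAP1 than in untreated control arrays, and COL4A1 and ISG15 step up with IR in both genotypes.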

How the data were processed

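RNA of 8 PANC1 samples was hybridised to Affymetrix PrimeView arrays. The deposited values are log2 expression values that the authors summarised with RMA, and no counts or depths exist for arrays, whose number limits the precision. The table held 49395 probe sets, of which 102 controls were left out. Platform annotation gave 1 symbol to 44988 probe sets, several to 1832 and none to 2473. All 8 arrays (4 groups of 2) were fitted with limma 3.58.1 in R 4.3.3 (lmFit and eBayes), and p-values were adjusted by Benjamini-Hochberg over all 49293 probe sets. The fit was tested on simulated data. Named genes were the called members of each list by role (up to 6), otherwise its brightest members, and the 20 largest rises and falls with a group mean of 5 or more. Further pathway genes were named with their values known, and the comparison and lists were chosen with earlier results of these data known. Promoters came from RefSeq (GRCh38.p14) for 14425 of 18132 genes. Other scalings, thresholds, probe set rules and the omission of each array were tried.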

Additional observations from a re-analysis of the deposited data

Results flagged for a closer look

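For 21 named genes the change after IR differed between sgBAP1 and untargeted cells by the limma interaction term (adjusted p 0.0183 to 0.0479). Values are the change in sgBAP1 cells minus the change in untargeted cells, on the log2 scale. The value was below 0 for EGR1 (-1.42), H2BC4 (-1.37), FILIP1L (-1.25), GADD45A (-1.18), CXCL8 (-0.92), ATP8B1 (-0.89), H2BC5 (-0.80), THBS1 (-0.78), CDKN1A (-0.76), IRF1 (-0.73), H2BC12 (-0.73), H1-2 (-0.68), CASP4 (-0.65) and KRT15 (-0.62), all of which rose in untargeted cells. It was above 0 for CCN4 (0.65), TET1 (0.67), PFKFB4 (0.68), COL5A2 (0.77), CACNA1A (0.88) and BTNL9 (0.96), which fell in untargeted cells. SNAI2, a mesenchymal regulator, had a value of 0.94, with a change of 0.46 in untargeted and 1.40 in sgBAP1 cells. No call of such a difference was left when any single array was omitted, and genes called for their change in untargeted cells share arrays with this term.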

How the results depend on the processing

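Counts of risen and fallen genes stayed within 1.5 times of 399 and 251 with only the 4 arrays fitted, after quantile normalisation, after centring, without dim probe sets and without any 1 of the 4 arrays (382 to 427 and 214 to 304), and 319 risen and 174 fallen genes were called in all 4 omissions. Of called genes 61.4% were higher, against 56 to 66.6% under these settings. Without a fold minimum 4098 probe sets (1672 genes) were higher and 4457 (1926 genes) lower. The methods' t-test at its unadjusted threshold called 533 probe sets higher and 310 lower (238 and 141 genes), and after Benjamini-Hochberg adjustment it called 0 in each of these 4 counts. When a gene's probe sets were averaged 162 genes were lower. The count of differences between both responses was 166 at the methods' unadjusted threshold and 0 to 0 without any 1 array. Of 165 named called genes, 123 kept their call when probe sets were averaged, 112 with the methods' unadjusted t-test and 152 to 156 in the omissions. None of these called genes changed sign in these settings, whereas some uncalled named genes near 0, such as IL6, MX2 and GAPDH, did. The cause of these shifts was not tested. No paired analysis was possible because no replicate numbers are common to the groups' labels. With 2 arrays per group, changes near the floor of the arrays are the least certain.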
